A study of Homo sapiens with 16 samples.

Results

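The genes described here are the death receptors FAS, TNFRSF10A, TNFRSF10B, TNFRSF1A and EDA2R, the decoy receptors TNFRSF10C and TNFRSF10D, the adaptor FADD, and the initiator caspases CASP8 and CASP10. They were taken by symbol, from a list drawn up with earlier results of these data known, so counts over them are a description. Of these 10 genes, 8 were present in all 4 of the authors' tables, which together held 23396 genes. TNFRSF10A and TNFRSF10D were not in the tables used here and are not analysed here. The libraries were poly(A) RNA from U2OS, an established human osteosarcoma cell line with intact p53. Cells were transfected with siControl, a control siRNA, or with siRFX7, which targets the transcription factor RFX7, and then received DMSO, the solvent, or 10 µM Nutlin-3a for 24 h. Nutlin-3a keeps the ubiquitin ligase MDM2 off p53 and so raises p53. The 4 groups, each with 4 libraries, were siControl with DMSO, siControl with Nutlin-3a, siRFX7 with DMSO and siRFX7 with Nutlin-3a. All 4 groups therefore received a siRNA. The knockdown was partial: per the authors' deposited tables RFX7 had a log2 fold change of -2.42 ± 0.07 (SE) under DMSO and -2.37 ± 0.07 under Nutlin-3a. Each table was given its direction from the signs of RFX7, CDKN1A and MDM2, so those signs are no check of the labels.

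Death receptors are cell surface proteins of the TNF receptor superfamily. When their ligands bind, FAS and the TRAIL receptors TNFRSF10A (DR4) and TNFRSF10B (DR5) recruit FADD through paired death domains, and FADD in turn gathers CASP8 and CASP10, which cleave and activate the executioner caspases. TNFRSF1A, the main receptor for TNF, signals first through TRADD and RIPK1 to NF-kB and can reach the same caspases later. TNFRSF10C and TNFRSF10D bind TRAIL but carry no working death domain. EDA2R binds the A2 form of ectodysplasin and has no death domain. FAS, TNFRSF10B and EDA2R are textbook transcriptional targets of p53, and the p53 element of FAS is known to lie in its first intron.

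The sequences below show where letters of the p53 binding consensus occur near the starts of FAS and CASP8, and where letters of an RFX half-site occur near that of EDA2R. Each is the 250 bases before a start site in RefSeq (GRCh38.p14), written 5′ to 3′ on the strand of the gene. Capitals mark a pair of adjacent p53 half-sites with at most 2 mismatches in FAS, a single p53 half-site in CASP8 and GTTGCTA in EDA2R. The window of FAS is chr10:88991181-88991430 (plus strand), before its start at 88991431. The window of CASP8 is chr2:201257785-201258034 (plus strand), before its start at 201258035. That of EDA2R is chrX:66639079-66639328 (minus strand), before its start at 66639078.
FAS: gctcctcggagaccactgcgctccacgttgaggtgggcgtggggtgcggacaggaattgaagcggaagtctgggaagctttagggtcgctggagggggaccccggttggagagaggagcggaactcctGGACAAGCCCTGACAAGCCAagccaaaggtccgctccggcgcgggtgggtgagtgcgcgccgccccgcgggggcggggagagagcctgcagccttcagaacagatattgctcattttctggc
CASP8: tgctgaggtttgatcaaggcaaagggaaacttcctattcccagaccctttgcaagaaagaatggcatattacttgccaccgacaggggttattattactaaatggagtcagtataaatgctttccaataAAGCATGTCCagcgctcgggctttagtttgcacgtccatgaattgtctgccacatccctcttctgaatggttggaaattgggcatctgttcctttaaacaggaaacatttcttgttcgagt
EDA2R: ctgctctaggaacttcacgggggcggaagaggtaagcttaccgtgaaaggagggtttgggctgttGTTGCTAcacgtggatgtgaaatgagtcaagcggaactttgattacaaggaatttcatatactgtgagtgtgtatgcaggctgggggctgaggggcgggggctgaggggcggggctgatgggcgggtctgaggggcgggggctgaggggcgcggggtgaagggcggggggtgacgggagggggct

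The pair of half-sites in FAS, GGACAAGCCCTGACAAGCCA, lay at 88991309 to 88991328, in intron 1 of all 4 coding transcripts of FAS in GENCODE 29, and had 2 mismatches to the consensus. Pairs were counted only where the core C and G of both half-sites matched the consensus, so the mismatches lay at other positions. Such a pair was present in 85 of 35116 windows of the same length (0.242%). The single half-site in CASP8, AAGCATGTCC, lay at 201257914 to 201257923, in intron 2 of 7 coding transcripts and outside 8 others. A half-site match was found in 5.57% of all windows. Both strands were covered, since the consensus reads the same on each. RefSeq windows of 5 of the 8 genes were examined, 10 windows in all. No other window of FAS, CASP8, EDA2R, FADD or TNFRSF1A held a half-site. No window of TNFRSF10B, TNFRSF10C or CASP10 was examined, so nothing is said here about matches near their starts. GTTGCC or GTTGCTA, half-site letters of the X-box that RFX factors bind, were in 12.2% of all windows on either strand. Among the 10 windows, GTTGCTA occurred once, in the EDA2R window printed above, 185 bases before the start, and GTTGCC did not occur. This match lay inside the annotated span of EDA2R (66595637 to 66639298), downstream of its other RefSeq start at 66639269. These matches describe letters only and do not show binding.

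**Figure D1:**
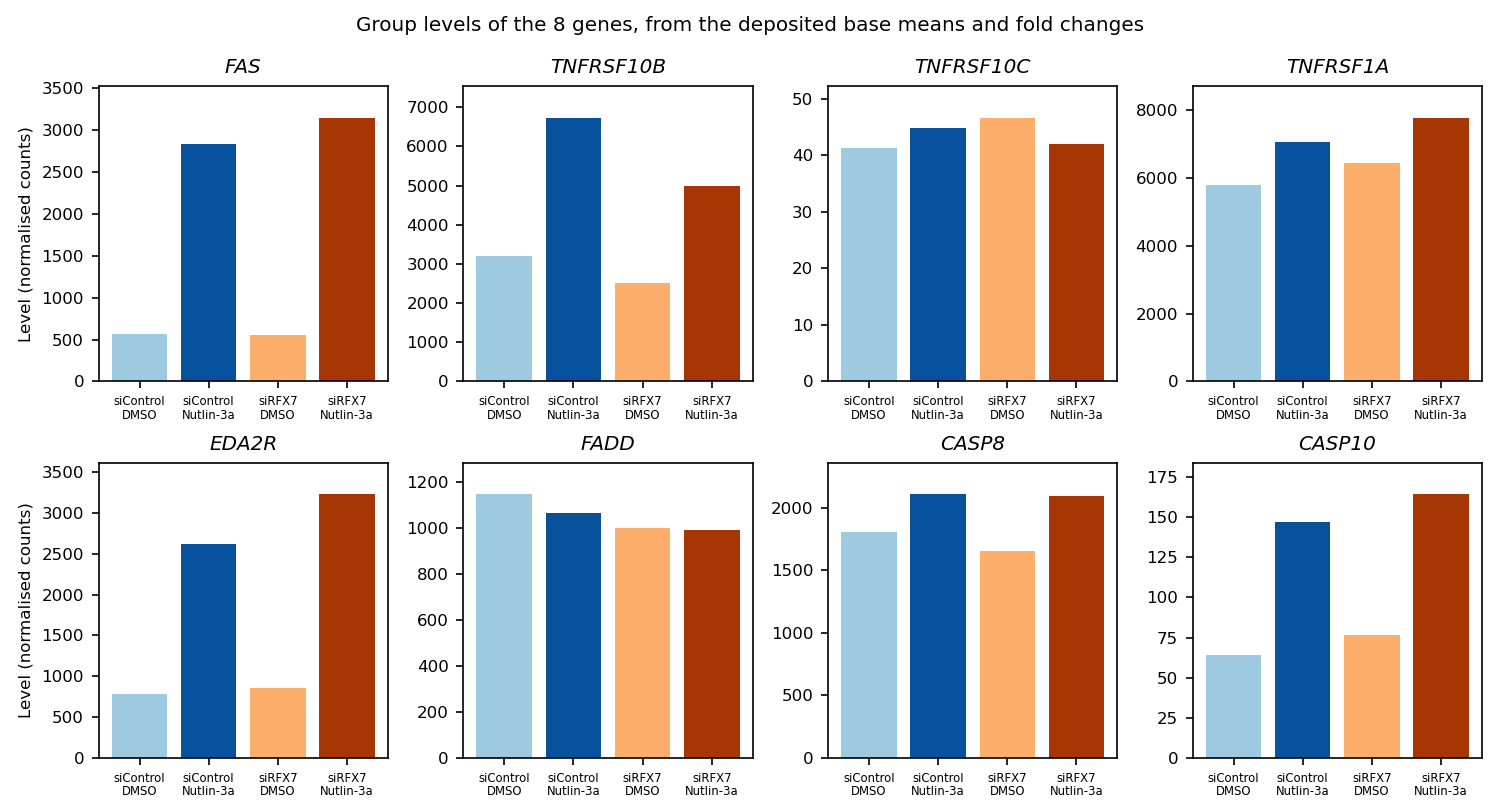
Level of each of the 8 genes in the 4 groups, in normalised counts on a linear axis from 0, with a separate axis for each gene. The levels were split from the authors' base means by their fold changes, so the bars carry no error of single libraries. FAS and EDA2R stand several times higher in both Nutlin-3a groups, whereas FADD and TNFRSF10C stay near their DMSO levels.

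The files hold comparisons of groups and no value of a single library. A level per group was therefore computed in normalised counts by splitting the base mean of the siControl table by its fold change and carrying it to the siRFX7 groups by the knockdown fold changes. Reaching the siRFX7 Nutlin-3a level by way of the siRFX7 response instead moved it by 0.0185% to 0.177%. Nothing in the labels says that the libraries of a group came from separate cultures, so the p-values may measure technical spread. In bulk RNA, fewer cells with a transcript and less of it per cell cannot be told apart. Each count of calls uses an adjusted p under 0.05 over all genes of a table.

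Nutlin-3a raised 6 of the 8 genes in siControl cells, and it lowered none. By the siControl comparison among the authors' deposited tables, FAS, EDA2R, CASP10 and TNFRSF10B rose more than 2-fold, while TNFRSF1A and CASP8 rose by no more than 1.22-fold. FADD and TNFRSF10C did not pass. Among all 23353 genes of that table, 18.3% were called higher and 19.6% lower. The median log2 fold change of the 8 genes was 0.68, beside 0.01 over all genes tested. With siRFX7 the same 6 genes rose, with a median of 0.66, where the background was 18.7% called higher and 20.3% lower among 21382 genes.

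FAS, the receptor for FAS ligand, changed most. Its level was 567 normalised counts in siControl with DMSO, 2829.7 in siControl with Nutlin-3a, 551 in siRFX7 with DMSO and 3148 in siRFX7 with Nutlin-3a. Both Nutlin-3a groups lay far above both DMSO groups. The log2 fold change with Nutlin-3a, per the authors' deposited tables, was 2.32 ± 0.06 (SE) in siControl, a 4.99-fold rise, and 2.51 ± 0.06 in siRFX7, a 5.70-fold rise, with both adjusted p-values deposited as 0. Among 13525 genes with a base mean no lower than 100, this rise was the 41st highest in siControl. FAS (ENSG00000026103, chromosome 10, 88990582 to 89015785, plus strand in GENCODE 29) overlaps the opposite-strand gene ACTA2, smooth muscle actin, over 758 bases at its start. The overlap covers 380 exon bases, 8.94% of the exon length of FAS, and includes the pair of half-sites printed above. ACTA2, looked up after the values of FAS were seen, also rose with Nutlin-3a. Per the authors' deposited tables, its change was 3.18 ± 0.12 (SE) in siControl and 2.90 ± 0.14 in siRFX7. Under Nutlin-3a with siRFX7 over siControl, ACTA2 was at -0.25 ± 0.08 (SE), per the authors' deposited table. The sources used here do not say whether reads were counted by strand, and the part of any shared reads was not tested.

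EDA2R, the receptor for ectodysplasin A2 (ENSG00000131080, chromosome X, 66595637 to 66639298, minus strand), changed next most among the receptors. It stood at 784 normalised counts in siControl with DMSO and 858 in siRFX7 with DMSO. With Nutlin-3a it reached 2623 in siControl and 3229 in siRFX7. The authors' deposited tables gave log2 fold changes of 1.74 ± 0.05 (SE; adjusted p 2.85e-225) and 1.91 ± 0.06 (adjusted p 8.22e-255). These are rises of 3.34-fold and 3.76-fold. EDA2R shared no stretch of 50 bases with any other gene's transcripts, and no annotated gene overlaps it.

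TNFRSF10B, the TRAIL receptor DR5, started from a higher level and rose about 2-fold (ENSG00000120889, chromosome 8, 23020133 to 23069179, minus strand). Its levels were 3209 normalised counts in siControl with DMSO, 6736 in siControl with Nutlin-3a, 2515 in siRFX7 with DMSO and 4980.4 in siRFX7 with Nutlin-3a. Each siRFX7 level was below the siControl level of the same treatment. In the authors' deposited tables the response was 1.07 ± 0.04 (SE; adjusted p 3.00e-140) in siControl and 0.98 ± 0.05 (adjusted p 7.37e-87) in siRFX7.

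TNFRSF10C, a TRAIL decoy receptor anchored in the membrane without a cytoplasmic death domain (ENSG00000173535, chromosome 8, 23102590 to 23117437, plus strand), lies 33410 bases from TNFRSF10B. Its level was low, between 41.3 and 46.7 normalised counts in the 4 groups. The authors' deposited tables gave 0.12 ± 0.24 (SE) in siControl, with a 95% interval of -0.35 to 0.58, and -0.15 ± 0.25 in siRFX7, with an interval of -0.65 to 0.34. Neither passed (adjusted p 0.768 and 0.698, per the authors' deposited tables). These intervals exclude a doubling of the kind seen for its neighbour TNFRSF10B, but not a change of 0.3 on the log2 scale. Its values are uncertain, because 35.4% of its 50-base stretches also occur in the overlapping transcripts AC107959.4 and AC107959.5.

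TNFRSF1A, the main TNF receptor (ENSG00000067182, chromosome 12, 6328757 to 6342114, minus strand), was the most abundant of the 8 genes per length. It had 1450.2 normalised counts per kb of exon in siControl with DMSO, against 622 for both TNFRSF10B and FADD, 250 for CASP8, 219 for EDA2R and 133 for FAS. CASP10 and TNFRSF10C were lowest, at 8.40 and 22.1 per kb. The exon length was the union of all annotated exons of a gene, which can exceed the length of any single transcript. It was 7243 bases for CASP8 and 7598 for CASP10, against 1841 for FADD, so the order per length depends on this choice. With Nutlin-3a the order in siControl changed: TNFRSF1A stood at 1763 per kb and TNFRSF10B at 1306, followed by EDA2R at 733, FAS at 665 and FADD at 577. No test was made of this order, and without values of single libraries the spread of neighbours such as EDA2R and FAS is unknown. The response of TNFRSF1A itself was small, at 0.28 ± 0.05 (SE; adjusted p 5.26e-09) in siControl and 0.27 ± 0.04 (adjusted p 2.02e-10) in siRFX7, per the authors' deposited tables.

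FADD, the adaptor that joins FAS and the TRAIL receptors to the caspases (ENSG00000168040, chromosome 11, 70203163 to 70207390, plus strand), showed no response that passed. Its levels ran from 989 to 1146 normalised counts. The authors' deposited tables gave -0.11 ± 0.06 (SE; adjusted p 0.132) in siControl and -0.02 ± 0.07 (adjusted p 0.881) in siRFX7. The 95% intervals, -0.22 to 0.00 and -0.16 to 0.12, hold changes of at most 0.22 in size. An antisense gene, AP000879.1, covers 54.9% of the exon length of FADD but had base means of only 6.07 to 8.82, per the authors' deposited tables.

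The initiator caspases, which share a locus on chromosome 2, differed in level and in response. CASP10 (ENSG00000003400, 201182881 to 201229406, plus strand) ends 4036 bases before CASP8 (ENSG00000064012, 201233443 to 201287711, plus strand). CASP10 was scarce, with 63.8 normalised counts in siControl with DMSO and 76.5 in siRFX7 with DMSO, and reached 147 and 164 with Nutlin-3a. Its response, per the authors' deposited tables, was 1.20 ± 0.16 (SE; adjusted p 2.40e-13) in siControl, a 2.30-fold rise, and 1.10 ± 0.16 (adjusted p 8.93e-11) in siRFX7. CASP8 had 1808 and 1653 normalised counts under DMSO and 2109 and 2097 under Nutlin-3a, in siControl and siRFX7 in that order. It rose by 0.22 ± 0.05 (SE; adjusted p 7.13e-05) in siControl and by 0.34 ± 0.05 (adjusted p 3.44e-09) in siRFX7, per the authors' deposited tables. CFLAR, which encodes the CASP8 inhibitor FLIP and ends 6193 bases before CASP10, is named here for its position, after its values were seen. It rose by 0.31 ± 0.04 (SE) in siControl and 0.15 ± 0.05 in siRFX7, per the authors' deposited tables.

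With each statistic divided by the robust SD over all genes of its table, the small rises of TNFRSF1A and CASP8 no longer passed in either table (adjusted p 0.0669 to 0.355). The rise of CASP10 in siRFX7 no longer passed either (adjusted p 0.0596). That SD, 2.40 and 2.48, also holds the true changes of a strong treatment.

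**Figure D2:**
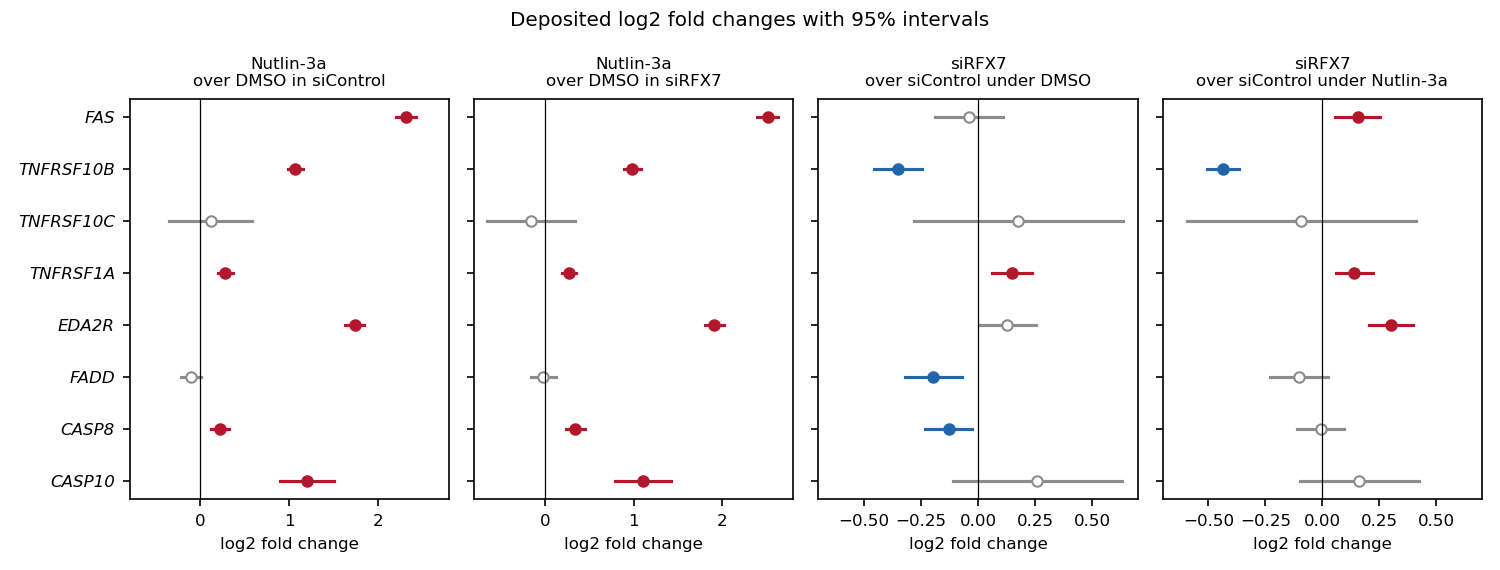
Log2 fold changes of the 8 genes in the 4 comparisons from the authors' deposited tables, as points with 95% intervals. Red marks genes called higher, blue genes called lower (adjusted p under 0.05) and open grey points genes that did not pass, and the axes of the 2 panels on the left are wider than those on the right. FAS lies at 2.32 and 2.51 with Nutlin-3a, and TNFRSF10B lies below 0 in both knockdown panels, at -0.35 and -0.44.

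Knockdown of RFX7 moved FAS, EDA2R, CASP10 and TNFRSF10B less than Nutlin-3a did, whereas FADD was called under DMSO with knockdown and not with Nutlin-3a. The calls went in both directions. Under DMSO, the authors' deposited table called TNFRSF10B, FADD and CASP8 lower with siRFX7 and TNFRSF1A higher, 4 of the 8 genes. Over all 19511 genes of that table, 17.5% were called lower and 19.9% higher. Among its genes with a base mean no lower than 100, which 6 of the 8 reached, 22.6% were called lower and 27.1% higher. Under Nutlin-3a, TNFRSF10B was called lower and FAS, EDA2R and TNFRSF1A higher, against 15.4% lower and 17.2% higher among 20335 genes. At a base mean no lower than 100, which 7 of the 8 reached, these shares were 20.6% and 24.6%. The medians of the 8 genes were 0.04 under DMSO and 0.07 under Nutlin-3a, beside -0.002 and -0.005 over all genes tested. CASP10 and TNFRSF10C passed in neither table.

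TNFRSF10B had the largest knockdown effect of the 8 genes. Its log2 fold change, per the authors' deposited tables, was -0.35 ± 0.05 (SE; adjusted p 9.54e-10) under DMSO and -0.44 ± 0.04 (adjusted p 5.20e-31) under Nutlin-3a. The siRFX7 levels were 0.784 and 0.739 times the siControl levels. Under Nutlin-3a, it was the 627th lowest of 13177 genes with a base mean no lower than 100. TNFRSF10B overlaps the end of RHOBTB2, on the opposite strand, by 67 bases, or 1.30% of its exon length. RHOBTB2, looked up for this overlap, was higher with siRFX7, per the authors' deposited tables, by 0.34 ± 0.06 (SE) and 0.18 ± 0.05. With statistics divided by the robust SD, the call under DMSO was lost (adjusted p 0.123) and that under Nutlin-3a was kept.

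EDA2R and FAS were called higher with siRFX7 under Nutlin-3a and did not pass under DMSO. The effects under Nutlin-3a and DMSO did not differ past the threshold in the test of the difference given further on. EDA2R was at 0.30 ± 0.05 (SE; adjusted p 1.72e-08) under Nutlin-3a and 0.13 ± 0.06 (adjusted p 0.0957) under DMSO, per the authors' deposited tables. FAS was at 0.15 ± 0.05 (SE; adjusted p 0.00782) and -0.04 ± 0.08 (adjusted p 0.728), per the authors' deposited tables. With the totals of normalised counts set equal between groups, an alternative added after seeing the data, FAS no longer passed under Nutlin-3a (0.10, adjusted p 0.122), while EDA2R did (0.24). Neither passed with statistics divided by the robust SD (adjusted p 0.678 for FAS and 0.0947 for EDA2R).

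TNFRSF1A was slightly higher with siRFX7 under both treatments, at 0.15 ± 0.04 (SE; adjusted p 0.00395) and 0.14 ± 0.04 (adjusted p 0.00344), per the authors' deposited tables. Setting the totals equal reduced these to 0.09 and 0.08, which did not pass (adjusted p 0.123 and 0.113). FADD was lower under DMSO, at -0.20 ± 0.06 (SE; adjusted p 0.00716), and at -0.10 ± 0.06 (adjusted p 0.229) under Nutlin-3a, per the authors' deposited tables. CASP8 was lower under DMSO by a small margin, at -0.13 ± 0.05 (SE; adjusted p 0.0364), and at -0.01 ± 0.05 (adjusted p 0.933) under Nutlin-3a, per the authors' deposited tables. For CASP10 the values, per the authors' deposited tables, were 0.26 ± 0.19 (SE) and 0.16 ± 0.13, and their 95% intervals, -0.11 to 0.63 and -0.10 to 0.42, contain 0. TNFRSF10C was at 0.18 ± 0.23 (SE) and -0.09 ± 0.26, per the authors' deposited tables. With statistics divided by the robust SD, none of the small effects on TNFRSF1A, FADD and CASP8 passed. None of the 8 genes carries the heptamer GTATCTA in an annotated 3′ UTR, a letter run picked in an earlier look at these fold changes for its presence in genes lower with siRFX7. It was in 8.89% of 11289 protein-coding genes with a base mean no lower than 100. Most genes lack it, so its absence from the 8 genes says little about them.

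**Figure D3:**
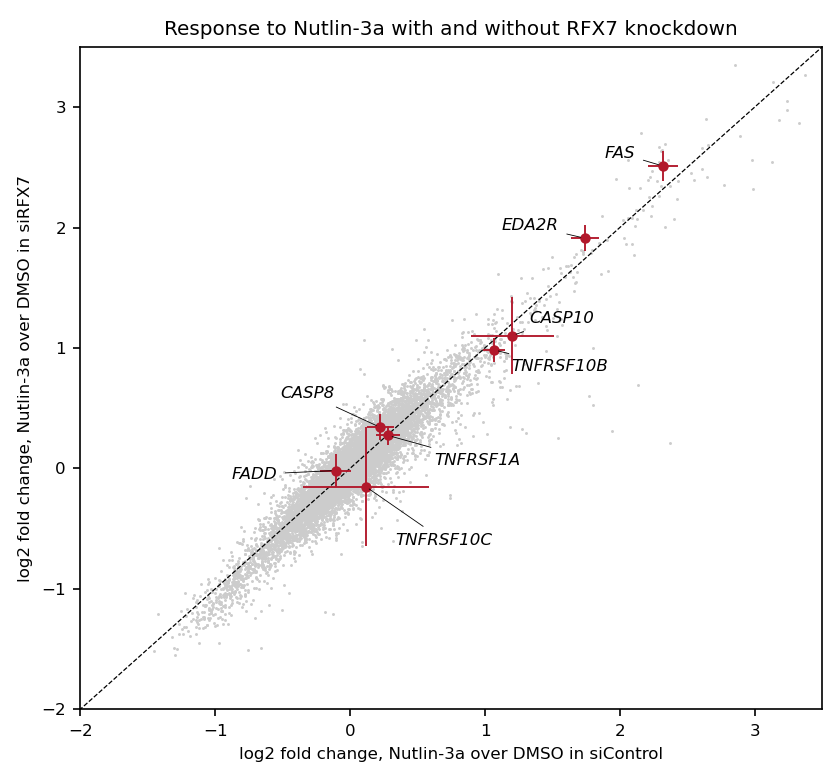
Log2 fold change with Nutlin-3a in siRFX7 (vertical) against that in siControl (horizontal) from the authors' deposited tables, with the 8 genes in red with 95% intervals and all genes with a base mean no lower than 100 in siControl in grey, where they lie within the axes. The dashed line marks equal responses. FAS and EDA2R lie just above the line, at 2.32 against 2.51 and 1.74 against 1.91, and no red point differs from it past the threshold of the test.

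The response to Nutlin-3a did not differ detectably between siRFX7 and siControl for any of the 8 genes. The difference of the responses (siRFX7 minus siControl) was tested by a two-sided normal test with Benjamini-Hochberg adjustment over 21339 genes, of which 0.937% were called. At an unadjusted p under 0.05 there were 2 of the 8, FAS and EDA2R, both with a larger response in siRFX7, where 6.32% of all genes reached that level. The difference was 0.19 ± 0.08 (SE; 95% interval 0.03 to 0.36; adjusted p 0.578) for FAS. For EDA2R it was 0.17 ± 0.08 (0.02 to 0.32; adjusted p 0.643). TNFRSF10B, although lower with siRFX7 under both treatments, had a difference of only -0.09 ± 0.06 (-0.21 to 0.04; adjusted p 0.99997). For CASP8 it was 0.12 ± 0.07 (-0.03 to 0.27), and for FADD 0.09 ± 0.09 (-0.09 to 0.27). TNFRSF1A had the narrowest interval, with a difference of -0.01 ± 0.06 (-0.13 to 0.11). The intervals of CASP10 (-0.54 to 0.34) and TNFRSF10C (-0.95 to 0.41) were wide, so moderate differences would not have been detectable at their depth. As a scale, CDKN1A, the p53 target that encodes the CDK inhibitor p21, differed by -0.26 ± 0.05 (SE; adjusted p 0.000305).

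The genes with the most similar pattern were taken, for each gene that rose in siControl, as the 3 nearest by Euclidean distance over the 4 deposited log2 fold changes, among 12747 genes with a base mean no lower than 100 in every table. The 4 comparisons share libraries, so this is a description. Nearest to FAS were CYFIP2, SYTL1 and PARD6G, at distances of 0.29 to 0.34. Those nearest to EDA2R were ZMAT3 (0.18), DGKA (0.21) and RPS27L (0.37). ZMAT3, an RNA-binding protein and known p53 target, had responses of 1.72 and 1.81 and knockdown effects of 0.27 and 0.36, per the authors' deposited tables. TNFRSF10B was nearest to NOP14-AS1 (0.01), FBXO22 (0.12) and PLCD1 (0.14), and CASP10 to EFNB1 (0.13), NUPR1 (0.19) and SLAMF7 (0.19). Around TNFRSF1A and CASP8, whose changes were small, the 3 nearest genes lay at 0.025 to 0.0308.

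**Figure D4:**
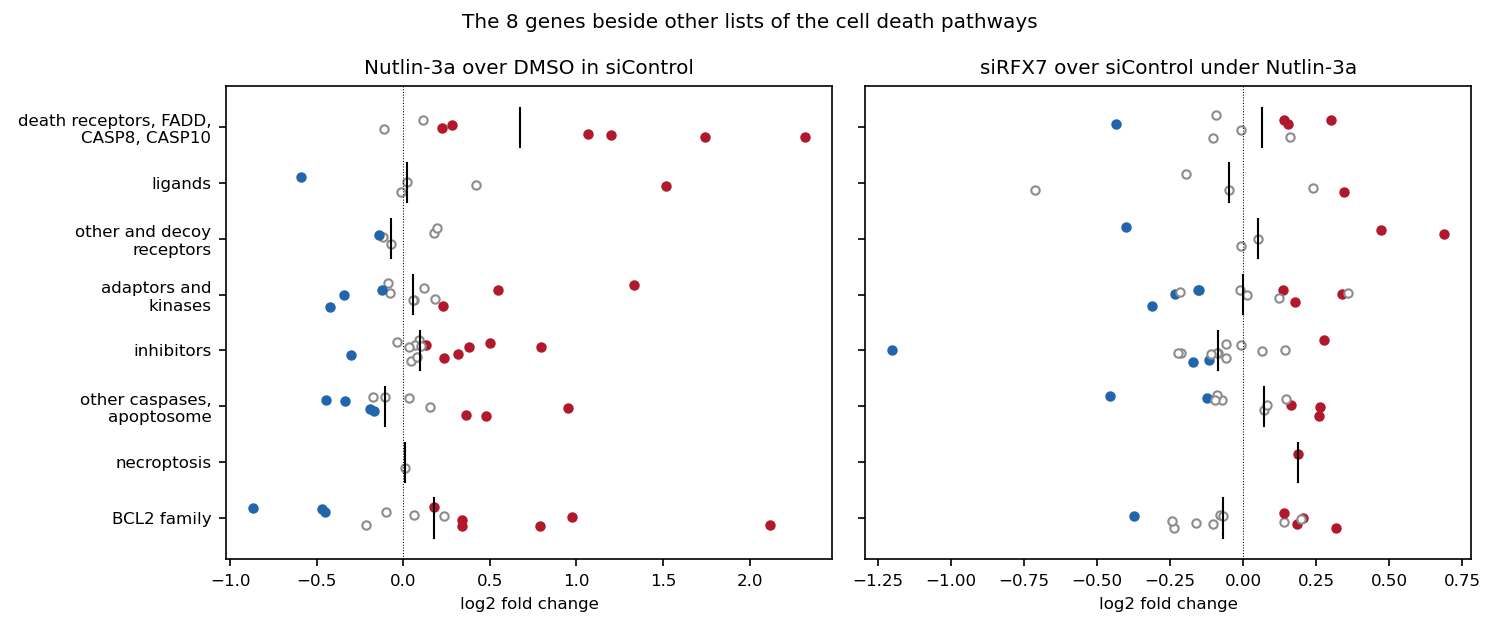
Log2 fold changes of the 8 genes and of 7 other cell death lists, for Nutlin-3a over DMSO in siControl (left) and siRFX7 over siControl under Nutlin-3a (right), from the authors' deposited tables. Each point is a gene, red called higher, blue called lower, open grey not passed, with a bar at the median of each list and points spread vertically at random within a row. The median of the 8 genes, 0.68, lies right of the other medians on the left, and BIRC3 lies lowest on the right at -1.20.

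Other genes of the cell death pathways were taken from 7 lists of 70 genes, of which 61 were in each of the authors' tables. With Nutlin-3a in siControl, the authors' deposited table called 19 of the 61 higher and 13 lower, with a median of 0.06. The shares over all genes of that table were 18.3% and 19.6%. They were 24.7% and 31.6% among genes with a base mean no lower than 100, which 52 of the 61 reached. For this comparison the called extremes of each list are named. Of the ligands, 5 of 8 were measured, 1 higher and 1 lower. TNFSF15 rose by 1.51 ± 0.29 (SE) and TNF fell by 0.59 ± 0.18, per the authors' deposited table of siControl cells. Both were scarce there, with base means of 31.2 and 68.0, and only 1 of the 5 ligands reached a base mean of 100. FASLG and TNFSF10, which encode the ligands of FAS and of the TRAIL receptors, were not in the tables used here. Of the other receptors, 5 of 8 were measured and 1, TNFRSF12A, was called lower (-0.14 ± 0.05, per the authors' deposited table of siControl cells).

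Of 12 adaptors and receptor-complex kinases, 3 were called higher and 3 lower. PIDD1, a death domain protein that activates CASP2, rose by 1.33 ± 0.06 (SE), and TRAF2, an adaptor that carries TNF receptor signals to NF-kB, fell by 0.42 ± 0.05, per the authors' deposited table of siControl cells. The list named inhibitors of death-receptor signalling had 14 measured genes, among them DIABLO and CYLD, and the name need not hold for each. Of these 14, 6 were called higher and 1 lower. BIRC3, a ubiquitin ligase of the TNF receptor complex, was highest at 0.80 ± 0.06 (SE) and OTULIN lowest at -0.30 ± 0.06, per the authors' deposited table of siControl cells. Of 11 other caspases and apoptosome genes, 3 were called higher and 4 lower, from CASP2 (-0.45 ± 0.05) to the inflammatory caspase CASP1 (0.95 ± 0.19), per the authors' deposited table of siControl cells. Of 13 genes of the BCL2 family list, which act at mitochondria, 6 were called higher and 3 lower, from BMF (-0.87 ± 0.18) to BBC3, the BH3-only protein PUMA (2.12 ± 0.07), per the authors' deposited table of siControl cells. Of the 3 genes on the necroptosis list only MLKL was measured, and it did not pass (0.01 ± 0.07). RIPK1 was counted among the adaptors and receptor-complex kinases. With siRFX7 over siControl, MLKL was called higher under Nutlin-3a (0.19 ± 0.08, adjusted p 0.0474), per the authors' deposited table. It did not pass under DMSO (0.10 ± 0.07, adjusted p 0.319), per the authors' deposited table.

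With siRFX7 the Nutlin-3a response called 23 of the 61 higher and 15 lower, per the authors' deposited table, with a median of 0.03, beside 18.7% and 20.3% of all genes. At a base mean no lower than 100, which 52 of the 61 reached, these shares were 24.8% and 31.5%. For the knockdown, 17 were called higher and 11 lower under DMSO, and 15 higher and 11 lower under Nutlin-3a, with medians of -0.002 and -0.05, per the authors' deposited tables. Over all genes the shares were 19.9% higher and 17.5% lower under DMSO, and 17.2% and 15.4% under Nutlin-3a. At a base mean no lower than 100, again reached by 52 of the 61, they were 27.1% and 22.6% under DMSO, and 24.6% and 20.6% under Nutlin-3a. BIRC3 was the lowest in both knockdown comparisons, at -0.87 ± 0.06 (SE) and -1.20 ± 0.06, per the authors' deposited tables. TNFRSF11B, a soluble decoy receptor for TRAIL and RANK ligand, was the highest of the lists, at 0.94 ± 0.09 (SE) and 0.69 ± 0.11, per the authors' deposited tables. CASP6, an executioner caspase, was the lowest of the other caspases, at -0.58 ± 0.10 (SE) and -0.46 ± 0.09, per the authors' deposited tables. TNF, the ligand of TNFRSF1A, was the highest ligand under DMSO at 0.73 ± 0.15 (SE; adjusted p 7.44e-06) and was at -0.05 ± 0.23 (adjusted p 0.912) under Nutlin-3a, per the authors' deposited tables. With siRFX7, TNF fell by 1.36 ± 0.19 (SE) with Nutlin-3a, per the authors' deposited table, and its difference of responses did not pass (-0.77 ± 0.27, adjusted p 0.206). EDA, whose A2 form is the ligand of EDA2R, was the highest ligand under Nutlin-3a at 0.35 ± 0.11 (SE; adjusted p 0.00529), per the authors' deposited table. Values per gene do not tell the A2 form from other forms of EDA. EDA was also called higher under DMSO, at 0.40 ± 0.11 (adjusted p 0.00138), per the authors' deposited table. Testing the difference of responses called 2 of the 61, BIRC3 and TNFAIP3, both with a lower response to Nutlin-3a in siRFX7. BIRC3 rose by 0.80 in siControl and 0.47 ± 0.06 in siRFX7, per the authors' deposited tables. TNFAIP3, a ubiquitin-editing enzyme that dampens TNF receptor signalling, rose by 0.23 ± 0.05 (SE) in siControl and fell by 0.19 ± 0.06 in siRFX7, per the authors' deposited tables. Its level under DMSO was higher with siRFX7 than with siControl, by 0.34 ± 0.05 (adjusted p 8.24e-09), per the authors' deposited table. Under Nutlin-3a this knockdown effect was -0.08 ± 0.05 (adjusted p 0.246), per the authors' deposited table.

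Markers were checked against the labelled cell type. Of 7 bone lineage markers, 5 were in all 4 tables, and COL1A1 had the highest base mean of the list, 37048 to 39039, per the authors' deposited tables. COL1A2, which encodes the partner chain of type I collagen, was near absent, with base means of 11.0 to 13.2, per the authors' deposited tables. SP7 was not in the tables used here, and BGLAP was in 2 of them with a base mean of about 4. None of 4 blood cell markers was in all 4 tables. The summed base mean of 3 endothelial markers was 21.7 to 27.4. Of 4 epithelial markers, EPCAM and CDH1 were present, with a summed base mean of 312 to 384. Both were higher with siRFX7, per the authors' deposited tables, EPCAM by 0.54 ± 0.11 (SE) under DMSO and 0.41 ± 0.11 under Nutlin-3a, and CDH1 by 0.85 ± 0.13 and 1.10 ± 0.12. KRT5 and KRT19 were not in the tables used here, and the part of these markers in the results above was not tested.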

How the data were processed

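The files were 4 tables of the authors' comparisons of 2 groups of 4 libraries. Libraries were stranded poly(A) mRNA libraries, per the labels' protocols. The submitters' processing notes name build hg38, featureCounts 1.6.5 and DESeq2 1.20.0. The aligner, the annotation and the strand setting of the counting are not given in the sources used here. The base mean, a signal the authors deposited, is the mean normalised count over the 8 libraries of a comparison. Sums of base means ran from 27946400 to 35311100 per table. The log2 fold changes and standard errors were used as deposited, and whether they were shrunken is not stated. The deposited score was the fold change over its standard error, and adjusted p-values, as the authors deposited them, equalled Benjamini-Hochberg values over exactly the genes of a table. Rows therefore lack genes without an adjusted p, and single libraries, their depth and left-out replicates could not be examined.

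Table directions were set from the signs of RFX7, CDKN1A and MDM2, with which differences of fold changes over 19344 genes closed to an SD of 0.00291. No model was refitted. Intervals are 95% normal intervals from the deposited errors. The difference of responses was tested in Python 3.11.15 with scipy 1.17.1, after a check on simulated data. Positions and exon lengths came from GENCODE 29 (GRCh38, the build of hg38). Shared sequence was counted in stretches of 50 bases of transcripts. The rule for named genes was the members, RFX7, CDKN1A and MDM2 as checks, list genes called in the difference of responses or at an extreme of their list, and the 3 nearest by pattern, and not every extreme is printed. Cell type markers came from fixed lists. ACTA2, RHOBTB2, AP000879.1 and CFLAR were added for their position after values were seen. Members, lists and tests were chosen with earlier results of these data known. The alternatives were a stricter adjusted p (0.01), a base mean of at least 100, a log2 size of at least 0.25, statistics divided by their robust SD, fold changes centred on the median, the knockdown tables for the difference and, added after seeing the data, equal totals.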

Additional observations from a re-analysis of the deposited data

Results flagged for a closer look

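Among the genes of the cell death pathways, 2 responded unequally to Nutlin-3a with siRFX7 and with siControl by the test of the difference of responses. For TNFAIP3 the difference was -0.42 ± 0.08 (SE; adjusted p 2.61e-05), and for BIRC3 it was -0.33 ± 0.09 (adjusted p 0.0175). Both were taken from the list named inhibitors of death-receptor signalling. Both kept this call under every alternative run but one: at an adjusted p under 0.01, BIRC3 did not pass. Not every alternative was stricter. For this test the robust SD was 0.949, so dividing by it enlarged the statistics, and the adjusted p of BIRC3 became 0.00741. None of the 8 death receptor, adaptor and caspase genes was called by this test.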

How the results depend on the processing

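Of the 5 counts of called genes among the 8, that of the Nutlin-3a response in siControl (6) ranged from 4 to 6 under the alternatives, and that of the difference of responses stayed at 0 under all of them. With statistics divided by the robust SD, 3 genes passed for the response in siRFX7 (FAS, EDA2R and TNFRSF10B) in place of 6, 0 for the knockdown under DMSO in place of 4, and 1 (TNFRSF10B) for the knockdown under Nutlin-3a in place of 4. This setting divides by 2.23 to 2.49 in the 4 tables, but by 0.949 for the difference of responses, where it is more lenient than the main setting. A log2 size of at least 0.25 left 1 gene for the knockdown under DMSO and 2 under Nutlin-3a, TNFRSF10B in both and EDA2R in the second. There were 254 single-gene values under alternatives, which include those of BIRC3 and TNFAIP3 for the difference of responses. A direction could change only with centring on the median, equal totals or the knockdown tables, since the other settings keep the fold change. Of the 254 values, 228 kept their direction and side of the threshold, 23 no longer passed and 1 newly passed. The other 2 changed sign: FADD in the siRFX7 response, from -0.02 to 0.00733 when centred on the median and to 0.0276 with equal totals, and it passed in none of these. The value that newly passed was FADD in the knockdown under Nutlin-3a with equal totals (-0.16, adjusted p 0.0408). Equal totals moved log2 fold changes by 0.04 to 0.06 in size.

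No paired analysis was possible because the tables hold no value of a single library, and leaving out single replicates was not run for the same reason. Depth limits CASP10 and TNFRSF10C most, whose base means were 63.1 to 131 and 33.5 to 43.1.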
